A study of Mus musculus with 14 samples.

Results

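Metallothioneins and the zinc machinery around them were followed in wounded mouse fibroblasts. The genes were Mt1 and Mt2, the transcription factor gene Mtf1, the zinc exporter gene Slc30a1 and the zinc importer genes Slc39a10 and Slc39a14. They were chosen by gene symbol, and all 6 were found among the 43472 genes listed in each of the 2 tables of normalised read counts. All 6 also passed the filter on low values, a mean normalised count of at least 10 in replicates 2 to 4, as did 13096 genes in all. Primary fibroblasts had been isolated from the tail tips of C57BL/6 mice, grown in medium with serum and wounded with a scratch. The cells were then left without further treatment (Untreated) or received autologous micrograft (AMG), a filtered extract of minced mouse skin that was depleted of cells and diluted in growth medium. Replicate 1 was collected at 1, 5, 12 and 24 h, with 1 library per group and time, while replicates 2, 3 and 4 stand for 5 h alone. The labels name neither a vehicle for the Untreated cells nor the age of the mice, and do not say which replicates came from separate animals or cultures, so p-values measure the spread between these libraries, which may be technical.

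Metallothioneins are small cysteine-rich proteins that bind zinc and copper and keep free metal ions low. Their genes are switched on when free zinc in the cell rises, through the zinc-sensing transcription factor MTF-1, which binds short metal response elements in their promoters, and they also respond to glucocorticoids, oxidants and inflammatory cytokines. Zinc enters the cytosol through SLC39 (ZIP) transporters and leaves it through SLC30 (ZnT) transporters. ZnT1, the product of Slc30a1, is itself a classical MTF-1 target, and ZIP14, the product of Slc39a14, is known as an interleukin-6-induced importer of zinc and iron.

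Between 12545537 and 34696529 reads per library fell in genes. All 7 fibroblast markers examined were expressed. Their summed normalised counts in replicates 2 to 4 were 338442 to 486306 in Untreated and 247696 to 329212 in AMG-treated libraries. With the replicate block explained below, 5 of the 7 were lower, against 19.3% of all genes. With correction for transcript length as well, 2 of the 7 were lower. Most of the sum came from Col1a1, Col1a2 and Col3a1, which were lower with AMG at 1 and 24 h in replicate 1. At 5 h in replicate 1 these 3 were higher, with log2 ratios of 0.38, 0.40 and 0.28. In replicate 1 the sums were 158200 to 274786 in Untreated and 111571 to 193990 in AMG-treated libraries. The 7 keratinocyte markers summed to 29.2 to 172 in Untreated and 40.7 to 305 in AMG-treated libraries. Among them Krt5, Krt14 and Krt1 did not exceed 3.48 in any library, Krt10 reached 156 and Ivl 226, with log2 ratios of Ivl of 3.24 at 5 h and 2.35 at 12 h in replicate 1, and Trp63 fell with the block in replicates 2 to 4 (log2 fold change -3.07, limma adjusted p = 0.00377). Over all libraries, 6 leukocyte markers summed to 89.1 to 1644 in Untreated and 127 to 1109 in AMG-treated cells, 4 endothelial markers to 15.7 to 238 and 7.63 to 115, 5 skeletal muscle markers to 704 to 7291 and 275 to 5494, and 4 adipocyte markers to 259 to 1393 and 338 to 2067. The 4 globin genes summed to 0 in Untreated and at most 10.8 in AMG-treated cells. The part of these markers in the results was not tested. Ribosomal protein genes, whose transcripts are short, took 2.24 to 6.88% of the reads of Untreated and 2.51 to 5.00% of the reads of AMG-treated libraries, with the highest share in Untreated 5h replicate 1. Short transcripts such as those of the metallothioneins were therefore also examined after each library was corrected for transcript length. In bulk RNA, a change in the share of cells that express a gene and a change in its RNA per cell cannot be told apart.

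Mt2 and Mt1 are neighbours on chromosome 8 (GRCm38, the build also called mm10), where Mt2 occupies bases 94172664-94173568 and Mt1 bases 94179082-94180327, both on the plus strand with 5513 bases between them and 3 exons each. Slc30a1 lies at chr1:191906767-191913247 on the plus strand. For these 3 genes, 250 bases of promoter sequence are shown because the metal response element is the feature that ties them to MTF-1. They were taken from the RefSeq promoter table of GRCm38.p6, which held an entry for 5 of the 6 genes, and each window ends at the base before the start that this table uses. That start lies 46 bases before the gene range given above for Mt2, but 7 bases inside it for Mt1 and 14 bases inside it for Slc30a1. Against the outermost start of the RefSeq gene range, it is the same base for Mt2 and lies 206 bases inside for Mt1 and 84 bases inside for Slc30a1, so the windows are not placed alike relative to the genes. The sequences run 5′ to 3′ on the gene's strand, and capitals mark a metal response element core (TGCACNC or TGCGCNC), an antioxidant response element core (TGACNNNGC) or the AP-1 motif TGACTCA, each searched on both strands.
Mt2, chr8:94172368-94172617, plus strand: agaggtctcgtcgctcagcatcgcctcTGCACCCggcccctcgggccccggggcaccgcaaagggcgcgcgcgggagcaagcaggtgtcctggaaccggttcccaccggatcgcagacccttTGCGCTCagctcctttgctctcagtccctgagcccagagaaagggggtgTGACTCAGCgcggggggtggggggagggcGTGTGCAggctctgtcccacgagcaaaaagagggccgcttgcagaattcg
Mt1, chr8:94178839-94179088, plus strand: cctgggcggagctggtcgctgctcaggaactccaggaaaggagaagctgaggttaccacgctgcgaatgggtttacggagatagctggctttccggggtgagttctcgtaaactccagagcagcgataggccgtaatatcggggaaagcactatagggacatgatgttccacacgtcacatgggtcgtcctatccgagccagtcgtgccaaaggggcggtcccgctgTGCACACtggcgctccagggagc
Slc30a1, chr1:191906531-191906780, plus strand: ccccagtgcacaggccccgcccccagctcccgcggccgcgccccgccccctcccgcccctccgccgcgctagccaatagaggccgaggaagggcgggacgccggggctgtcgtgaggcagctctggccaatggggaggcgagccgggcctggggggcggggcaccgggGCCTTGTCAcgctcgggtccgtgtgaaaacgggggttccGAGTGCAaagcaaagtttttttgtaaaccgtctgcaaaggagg

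The Mt2 window held 3 metal response element cores, which start at -223, -128 and -50 from the start used by the table, the last of them on the minus strand. Of 32851 promoters of the same length, 1.26% held at least as many. The Mt1 window held 1 core at -23, and the Slc30a1 window held 1 core on the minus strand at -43, against 21.4% of all promoters with at least 1. Mt2 also carried an antioxidant response element core at -79, a motif found in 10.2% of promoters, whose first 7 letters are at the same time the AP-1 motif, found in 4.46%. Slc30a1 carried an antioxidant response element core on the minus strand at -82. None of these motifs was found in the window of Mtf1 or in those of Slc39a10. These are letter matches in short windows placed by 1 annotated start and carry no measurement of binding, and the numbers of cores in Mt1 and Mt2 are not compared for that reason.

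At 5 h, in each pair of replicates 2 to 4, Mt2 and Mt1 had far higher levels in the AMG-treated than in the Untreated library. In the same pairs Slc39a14 and Mtf1 were moderately higher, Slc39a10 was lower and Slc30a1 was higher with the smallest fold change of the 6. The 5 h pair of replicate 1, which belongs to a separately normalised table, is described with the time course. Whether these differences exceeded the spread between replicates depended on whether the replicate number was used. With limma and no pairing, 0 of the 6 genes passed an adjusted p under 0.05, against 1.24% of the 13096 genes tested. At an unadjusted p under 0.05, Mt1 and Mt2 passed, against 23.1% of all genes. With the replicate number as a block, 5 of the 6 passed, against 37.2% of all genes. Of these, 4 were higher, against 17.9% of all genes, and 1 was lower, against 19.3%. The numbers were used as pairs because treated and untreated libraries of 1 number deviated together from their group means, with correlations over genes from 0.65 to 0.76. What a number shares is not given in the labels. DESeq2 on the recovered reads without pairing called Mt1 and Mt2, against 10.9% of all genes. On the same reads, edgeR called 0 of the 6 without pairing (1.03% of all genes) and 5 with the replicate block (37%).

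Mt2 encodes one of the 2 widely expressed metallothioneins. It had normalised counts of 1759, 517 and 1222 in Untreated replicates 2, 3 and 4 and of 15479, 3402 and 11992 in the AMG-treated libraries of the same numbers. The groups did not overlap, and the lowest treated library stood above the highest untreated one, as it did for 15.1% of all genes tested. The treated to untreated log2 ratios of the 3 pairs were 3.14, 2.72 and 3.29. The mean log2 fold change was 3.05 (SE 0.66, n = 3 per group, limma adjusted p = 0.0779). With the replicate block the SE fell to 0.12 and Mt2 rose (limma adjusted p = 4.76e-07). By fold change, Mt2 stood at place 81 of the 13096 genes.

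Mt1, the other widely expressed metallothionein, had normalised counts of 1871, 723 and 1291 in Untreated replicates 2, 3 and 4 and of 8499, 1939 and 5768 in the AMG-treated libraries. Again the groups did not overlap, but AMG-treated replicate 3 lay just above Untreated replicate 2. The log2 ratios within pairs were 2.18, 1.42 and 2.16. The mean log2 fold change of Mt1 was 1.92 (SE 0.58, n = 3 per group, limma adjusted p = 0.129), and Mt1 rose in the fit with the replicate block (SE 0.14, limma adjusted p = 3.51e-05). Without AMG-treated 5h replicate 3, both metallothioneins also passed with no pairing, at log2 fold changes of 2.54 for Mt1 and 3.72 for Mt2 (limma adjusted p = 0.0163 and 0.0116). That fit kept Untreated replicate 3, the lowest untreated library for both genes, and its fold changes exceeded the ratio of every pair of replicates 2 to 4. Without both libraries of replicate 3 they were 2.17 and 3.22. The share of all genes called without AMG-treated 5h replicate 3 was not computed.

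**Figure D1:**
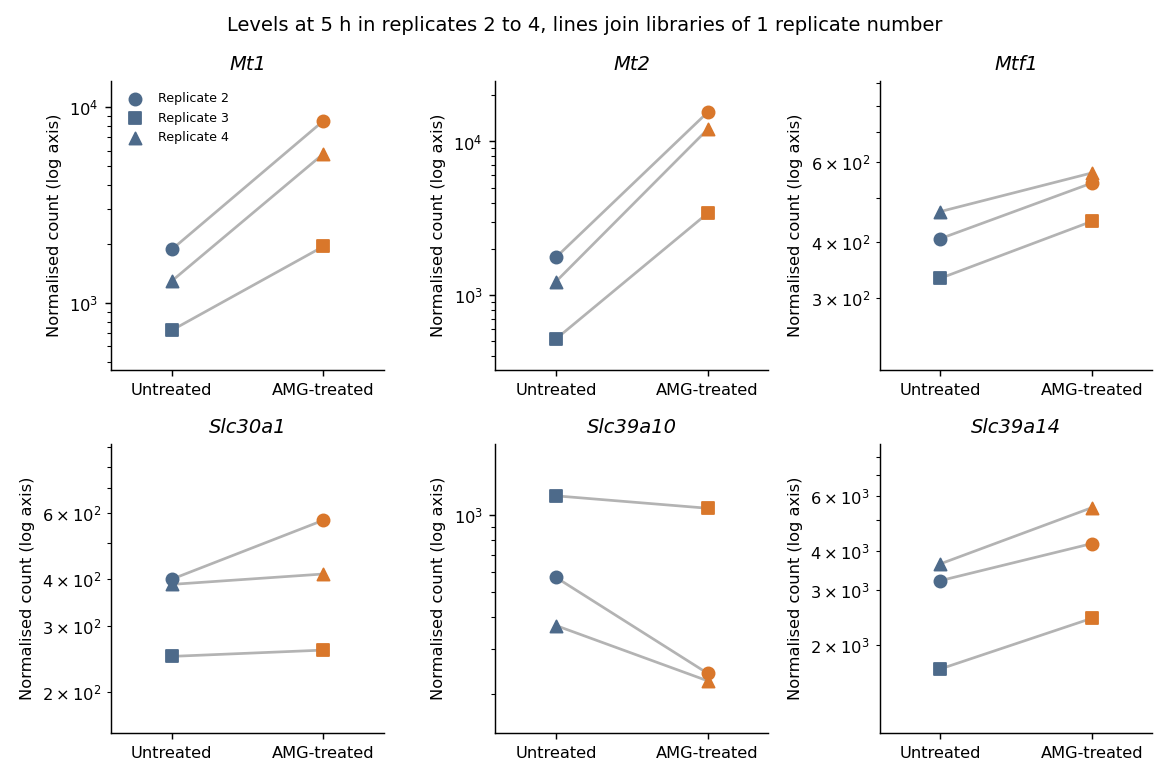
Normalised count (vertical log axis, scaled separately for each gene) of the 6 genes at 5 h in Untreated (blue) and AMG-treated (orange) libraries of replicates 2 to 4. Each symbol is 1 library and each line joins the libraries of 1 replicate number. The lines of Slc39a10 descend in all 3 pairs and those of the other 5 genes climb, and the libraries of replicate 3 lie lowest within each group for Mt2 and highest for Slc39a10.

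Transcripts under 1000 bases had a median log2 fold change of 0.41 in this comparison, against -0.02 over all genes, so part of the libraries' difference moved with transcript length. The metallothionein transcripts have 549 bases (Mt1) and 511 bases (Mt2). After correction for length, the log2 fold change was 1.44 for Mt1 and 2.57 for Mt2, and both passed with the replicate block (limma adjusted p = 2.08e-05 and 2.21e-07), as did 32.8% of the genes with a known length. The part of transcript length in the deposited difference was not tested beyond this correction.

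Within every library, the balance between the 2 metallothioneins also differed between the groups. This ratio needs no scaling between libraries, and the transcripts are of nearly equal length. It was 0.694 to 1.04 Mt2 reads per Mt1 read in the 7 Untreated libraries (median 0.922) and 1.75 to 2.35 in the 7 AMG-treated libraries (median 2.04), with no overlap. At 5 h the mean ratio was 0.910 ± 0.137 (SD, n = 4) in Untreated and 1.96 ± 0.211 (SD, n = 4) in AMG-treated libraries. The ratio of treated to untreated values lay between 1.94 and 2.68 in the 7 library pairs, whichever the time. None of the 50-base reads that the Mt1 transcript can give came within 2 mismatches of the Mt2 transcript, and none of those of Mt2 came that close to Mt1. The ratio was examined after the levels of both genes were known and is given as a description with no test. The share of other gene pairs whose ratio separates the groups in this way was not computed.

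**Figure D2:**
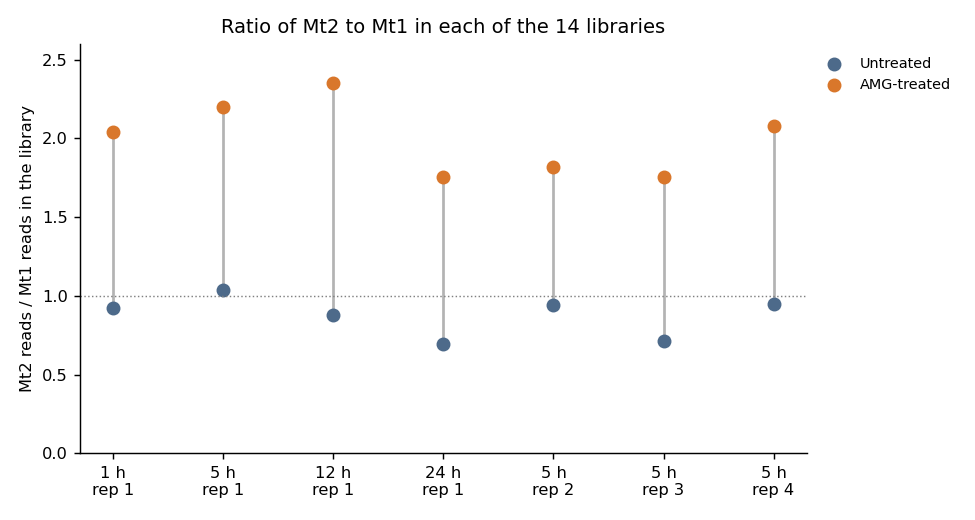
Ratio of Mt2 to Mt1 reads (vertical axis, linear) in each of the 14 libraries, by time and replicate. Blue points are Untreated and orange points AMG-treated libraries, grey lines join the libraries of 1 time and replicate, and the dotted line marks a ratio of 1. Untreated libraries lie between 0.694 and 1.04 and AMG-treated libraries between 1.75 and 2.35.

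Mt1 and Mt2 together took 0.00392 to 0.0356% of all reads in Untreated libraries and 0.0198 to 0.129% in AMG-treated libraries. Compared per kilobase of transcript at 5 h, they were the most abundant of the 6 genes in Untreated cells, at 2359 ± 1046 (Mt1) and 2282 ± 1219 (Mt2) normalised counts per kilobase (SD, n = 3), levels that did not differ beyond their spread. Slc39a14 followed at 577 ± 209, then Slc39a10 at 129 ± 77.9, Slc30a1 at 65.9 ± 16.0 and Mtf1 at 52.6 ± 8.85, each of the last 3 overlapping its neighbour in this order. In AMG-treated cells Mt2 reached 20139 ± 12163 normalised counts per kilobase and Mt1 reached 9840 ± 6002.

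Mtf1 encodes the zinc-sensing factor itself (chr4:124802104-124849800, plus strand). Its normalised counts were 406, 331 and 466 in Untreated replicates 2, 3 and 4 and 539, 444 and 568 in the AMG-treated libraries. The groups overlapped, yet the treated library was higher in all 3 pairs, as it was for 31.9% of all genes tested. The log2 fold change was 0.37 (SE 0.18, n = 3 per group, limma adjusted p = 0.271), and Mtf1 rose with the replicate block (SE 0.12, limma adjusted p = 0.0330). The gene overlaps 1110065P20Rik on the other strand, and whether the counting used strand is not given in the sources used here.

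Slc30a1, which encodes the plasma membrane zinc exporter ZnT1, had normalised counts of 400, 249 and 388 in Untreated and 575, 259 and 413 in AMG-treated replicates 2, 3 and 4. The groups overlapped through replicate 3, which was lowest in both. The treated library was higher in all 3 pairs, by 0.52, 0.06 and 0.09 on the log2 scale. The log2 fold change was 0.22 (SE 0.33, n = 3 per group, limma adjusted p = 0.719), with a 95% interval from -0.56 to 1.00. With the replicate block the interval was -0.09 to 0.54 (limma adjusted p = 0.237). Without AMG-treated 5h replicate 2 the log2 fold change was -0.048, in a fit with no pairing that kept Untreated replicate 2, the highest untreated library. With length correction and the block together the log2 fold change was 0.48 and passed (limma adjusted p = 0.0310). The call therefore depended on the processing. The direction of the unpaired fit depended on AMG-treated 5h replicate 2, while the ratios within the pairs of replicates 3 and 4 were positive but small. The antisense gene 1700034H15Rik overlaps Slc30a1, and reads of the 2 could not be told apart if strand was not used.

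Slc39a14 encodes the importer ZIP14 (chr14:70303469-70351425, minus strand). Its normalised counts were 3212, 1678 and 3634 in Untreated and 4219, 2436 and 5494 in AMG-treated replicates 2, 3 and 4. Replicate 3 was the lowest library in both groups and the groups overlapped, but the 3 log2 ratios within pairs were close together at 0.39, 0.54 and 0.60. The log2 fold change was 0.51 (SE 0.38, n = 3 per group, limma adjusted p = 0.453). With the replicate block the SE was 0.09 and Slc39a14 rose (limma adjusted p = 0.00287), and it did so too with length correction and the block (log2 fold change 0.74, limma adjusted p = 0.000376).

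Slc39a10 encodes the importer ZIP10 (chr1:46807544-46892852, minus strand). It had normalised counts of 571, 1192 and 370 in Untreated and 240, 1066 and 225 in AMG-treated replicates 2, 3 and 4. Both libraries of replicate 3 stood above every other library, the reverse of what was seen for Mt1 and Mt2, which were lowest within each group in replicate 3. The log2 ratios within pairs were -1.24, -0.16 and -0.72, all negative, as for 34.5% of genes, and the mean log2 fold change was -0.71 (SE 0.68, n = 3 per group, limma adjusted p = 0.559). Slc39a10 fell in the fit with the replicate block (SE 0.18, limma adjusted p = 0.0150). With length correction and the block it did not pass, at -0.44 (limma adjusted p = 0.0629), and the pair of replicate 1 at 5 h went the other way, at 1.05. Of the 5449 reads of 50 bases that its transcript can give, 27 are shared with Gm6801.

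Since replicate 3 stood apart for several of the genes, the 5 h comparison was repeated without both of its libraries, a choice made after these values were seen. Mt1, Mt2 and Slc39a10 then passed with no pairing, 3 of the 6 genes against 21.2% of all genes, at log2 fold changes of 2.17, 3.22 and -0.98. With replicate 1 added to make 4 pairs, edgeR with the replicate block called Mt2 alone (log2 fold change 2.59, adjusted p = 0.0211), against 3.78% of all genes, and gave an adjusted p of 0.0917 for Mt1.

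The time course asked how the differences developed between 1 and 24 h. In replicate 1 there is a single library per group and time, so the values have no replicate check, and the intervals given are 95% intervals for counting error only (Clopper-Pearson). Its table was normalised separately, and its levels are not compared with those of the other replicates.

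Mt2 had normalised counts of 1528, 4103, 330 and 338 in Untreated and of 10591, 8741, 2532 and 4602 in AMG-treated libraries at 1, 5, 12 and 24 h. The treated library was higher at every time. In order of time, the log2 ratios were 2.79 (2.72 to 2.87), 1.09 (1.03 to 1.15), 2.94 (2.80 to 3.09) and 3.76 (3.63 to 3.91). The largest ratio, at 24 h, went with a treated level below that of 1 h and an untreated level near its lowest, which was 12.4 times below its highest, at 5 h.

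For Mt1 the normalised counts were 1658, 3958, 375 and 486 in Untreated and 5190, 3972, 1076 and 2621 in AMG-treated libraries at 1, 5, 12 and 24 h. The levels at 5 h were nearly identical in the 2 groups, unlike in the 3 other pairs of that time. The log2 ratios were 1.65 (1.56 to 1.73), 0.0048 (-0.07 to 0.08), 1.52 (1.37 to 1.67) and 2.43 (2.31 to 2.56) in order of time. The untreated library of 5 h is the one with the highest share of ribosomal protein reads, 6.88%, against 3.19% in its treated counterpart, and transcripts under 1000 bases had a median log2 ratio of -0.97 in this pair and of 1.03 at 1 h. After length correction the log2 ratios of Mt1 were 0.54, 0.83, 1.54 and 2.01, and those of Mt2 were 1.67, 1.91, 2.95 and 3.33, so that both increased from each time to the next. Among the 12838 genes with a corrected ratio at 1 h, 2493 others stood at or above Mt1 and 285 others at or above Mt2.

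**Figure D3:**
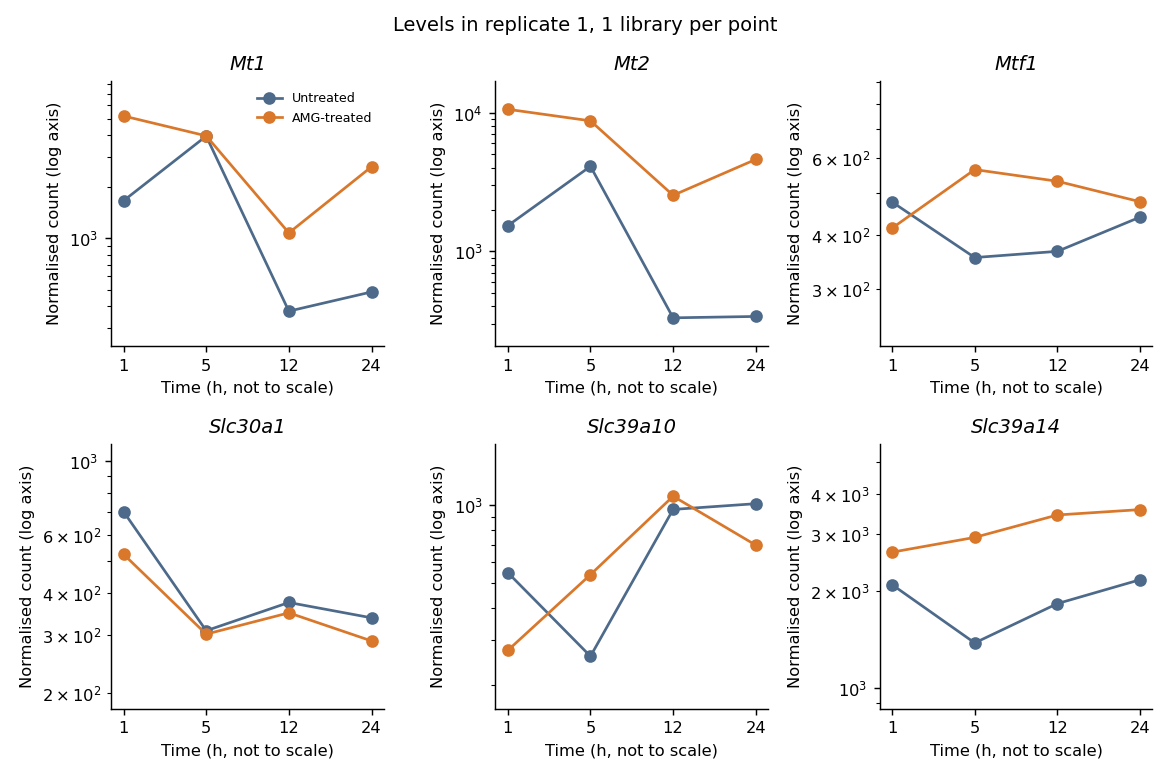
Normalised count (vertical log axis, scaled separately for each gene) of the 6 genes in replicate 1 at 1, 5, 12 and 24 h (horizontal axis, not to scale), with 1 library per point. Untreated libraries are blue and AMG-treated libraries orange. Mt2 and Slc39a14 are higher in the treated library at every time, the 2 groups meet for Mt1 at 5 h, and the lines of Mtf1 and Slc39a10 cross.

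The importer gene Slc39a14 had normalised counts of 2089, 1378, 1825 and 2164 in Untreated and of 2634, 2927, 3435 and 3570 in AMG-treated libraries at 1, 5, 12 and 24 h. Every treated library stood above all 4 untreated ones, whereas the groups overlapped in replicates 2 to 4. The share of all genes separated in this way in replicate 1 was not computed. The log2 ratios were 0.33 (0.24 to 0.43), 1.09 (0.98 to 1.20), 0.91 (0.84 to 0.99) and 0.72 (0.65 to 0.79).

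Mtf1 had normalised counts of 475, 354, 366 and 439 in Untreated and of 414, 565, 531 and 476 in AMG-treated libraries at these times. Over time it varied 1.34 times between the lowest and highest library in Untreated and 1.36 times in AMG-treated cells, where Mt1 varied 10.5 and 4.82 times. Its log2 ratios were -0.20 (-0.43 to 0.02), 0.67 (0.45 to 0.90), 0.54 (0.36 to 0.71) and 0.12 (-0.06 to 0.29), and the ratio at 5 h was -0.0061 after length correction.

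For the exporter gene Slc30a1, the normalised counts were 703, 308, 375 and 337 in Untreated and 523, 301, 349 and 287 in AMG-treated libraries. Both groups were highest at 1 h. The log2 ratios were -0.43 (-0.62 to -0.23), -0.03 (-0.29 to 0.22), -0.10 (-0.30 to 0.09) and -0.23 (-0.44 to -0.02), and the ratio at 1 h was 0.035 after length correction.

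Slc39a10 had normalised counts of 548, 259, 964 and 1015 in Untreated and of 273, 538, 1084 and 700 in AMG-treated libraries. Its highest levels were found at 12 and 24 h in both groups, when Mt1 and Mt2 were lowest in Untreated cells. The log2 ratios changed sign over time, at -1.0 (-1.27 to -0.75), 1.05 (0.80 to 1.31), 0.17 (0.05 to 0.29) and -0.53 (-0.66 to -0.41).

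Over the 7 library pairs, which share no library, Mt1, Mt2 and Slc39a14 were higher with AMG in 7 of 7, as deposited and after length correction, except that the ratio of Mt1 at 5 h in replicate 1 was -0.08 after upper quartile rescaling. Mtf1 was higher in 6 of 7, Slc30a1 in 3 of 7 and Slc39a10 in 2 of 7. These pairs mix 4 times of replicate 1 with 5 h alone in replicates 2 to 4, so the counts are descriptions only. The share of all genes higher in 7 of 7 was not computed. In replicates 2 to 4, 31.9% of all genes tested were higher in all 3 pairs. In replicate 1 alone, 47, 49.8, 48.9 and 51.6% of all genes were higher with AMG at the successive times. Log2 ratios above 1 were found for 11.3, 13.3, 5.93 and 6.05% of genes at the 4 times, and for Mt2 at each of them.

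**Figure D4:**
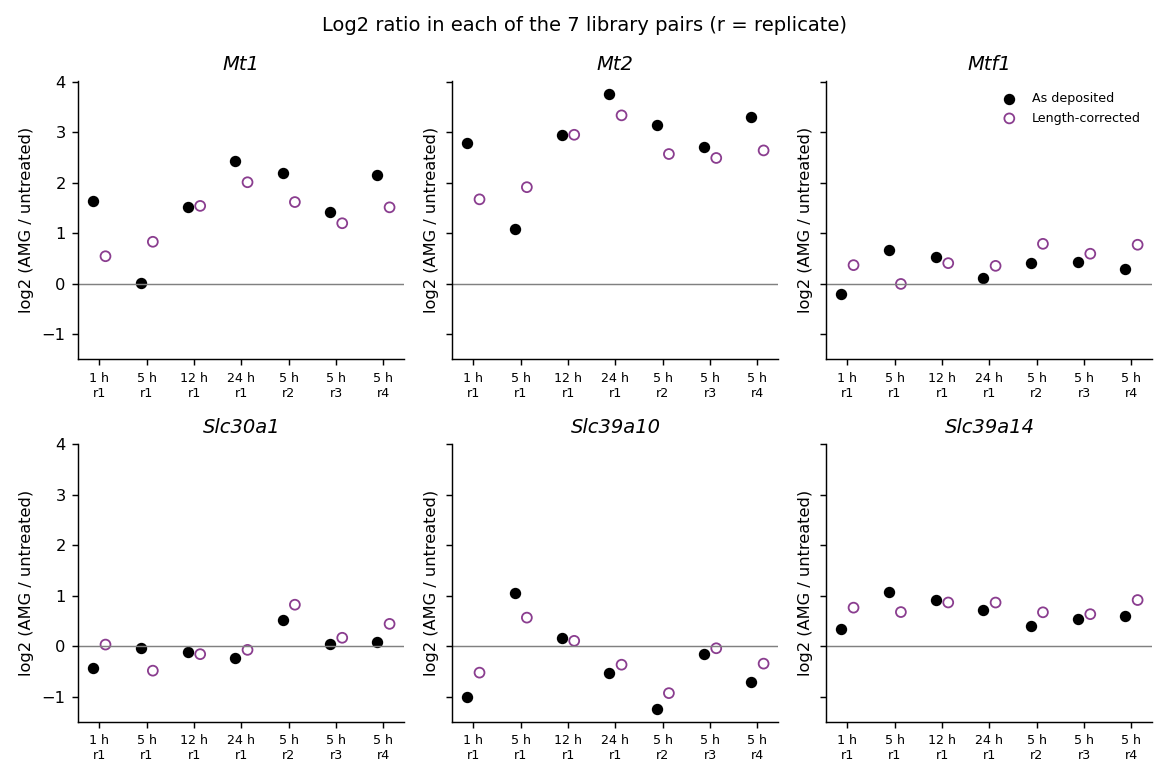
Log2 ratio of AMG-treated to Untreated normalised counts (vertical axis, the same for all genes) in the 7 pairs of libraries, 4 times of replicate 1 (r1) and the 5 h pairs of replicates 2 to 4 (r2 to r4). Filled points are the values as deposited and open points are corrected for transcript length. All points of Mt2 and Slc39a14 lie above 0, while those of Slc30a1 and Slc39a10 lie on both sides.

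Across libraries, Mt1 and Mt2 followed each other closely, with a Pearson correlation of log2 levels of 0.96 over the 8 libraries of replicate 1 and of 0.99 over the 6 libraries of replicates 2 to 4. Slc39a10 ran opposite to Mt1 in both tables, with correlations of -0.83 and -0.80. These points share treatment, time, replicate number and the length balance of the libraries, and the correlations are descriptions only. Slc30a1 correlated with Mt1 at 0.79 in replicates 2 to 4 and at 0.03 in replicate 1.

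The genes whose pattern was most like that of each member were found by the lower of its correlations in the 2 tables, among 12838 genes other than the 6 members. For Mt1 and Mt2 with each other this value was 0.96. For Mt2 these were Odc1, the rate-limiting enzyme of polyamine synthesis (0.99), Sqstm1, the autophagy receptor p62 (0.96), and H2-K1, a class I histocompatibility gene (0.96). For Mt1 they were Chkb, a choline kinase (0.96), Lemd2, a nuclear envelope protein (0.95), and Odc1 again (0.94). Slc39a14 was most like Dram1 (0.94), D030025P21Rik (0.90) and Arhgap22 (0.89), and Mtf1 most like Tmem87b (0.96), Adam8 (0.93) and Gopc (0.92). Slc39a10 was most like Jph4, Iqsec2 and P2rx7 (0.96, 0.96 and 0.95), and Slc30a1 most like Il17ra, Hivep3 and Klf13 (0.92, 0.91 and 0.85).

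At 5 h in replicates 2 to 4, the tested genes in the rest of the family moved little beside Mt1 and Mt2. The 4 other members, between -0.71 and 0.51, did not stand far apart from those genes. Members had been chosen with earlier results of these data known, so the contrast with Mt1 and Mt2 is a description only. Of 23 other metallothionein, SLC30 and SLC39 genes in the tables, 13 passed the filter, 5 exporters and 8 importers, and the 10 below it were not tested. With limma and no pairing, 0 of the 13 passed the adjusted threshold, Slc39a7 passed at an unadjusted p under 0.05, and DESeq2 and edgeR without pairing called 0. The log2 fold changes of the 13 at 5 h ran from -0.62 to 0.28 with a median of -0.04, against -0.02 over all genes tested. With the replicate block, 1 was higher and 1 lower, 2 of 13 against 37.2% of all genes. With length correction and the block, 4 of the 13 were called, against 32.8% of genes with a known length.

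Slc39a7 encodes ZIP7, which releases zinc from the endoplasmic reticulum. It had normalised counts of 423, 409 and 464 in Untreated and of 220, 312 and 319 in AMG-treated replicates 2, 3 and 4. The groups did not overlap, with all treated libraries lower, as for 13.6% of all genes tested. Its log2 fold change was -0.62 (SE 0.19, limma adjusted p = 0.130), and it fell with the replicate block (limma adjusted p = 0.00993), whereas in replicate 1 the log2 ratio was -0.80 at 5 h and 0.59 at 12 h.

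Slc39a6, which encodes the plasma membrane importer ZIP6, had normalised counts of 2251, 2406 and 2035 in Untreated and of 2555, 3335 and 2293 in AMG-treated replicates 2, 3 and 4, with overlap. Its log2 fold change was 0.28 (SE 0.17, limma adjusted p = 0.351), and it rose with the replicate block at an adjusted p of 0.0487 in limma, close to the threshold. The most abundant genes among the 13 were the importers Slc39a1, with a mean of 4433 normalised counts and a log2 fold change of 0.24, and Slc39a13, with 3276 and -0.10, followed by Slc39a6. Neither Slc39a1 nor Slc39a13 passed with the block (limma adjusted p = 0.0547 and 0.375).

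**Figure D5:**
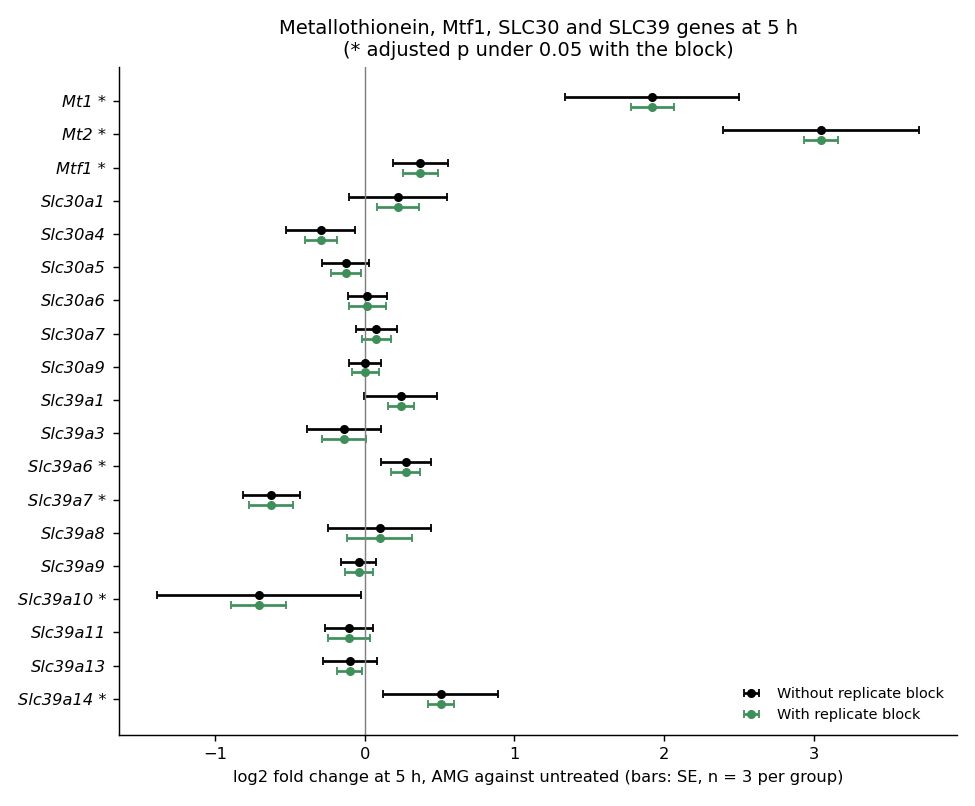
Log2 fold change at 5 h (horizontal axis, AMG-treated against Untreated, replicates 2 to 4, 3 libraries per group) of the 19 tested metallothionein, Mtf1, SLC30 and SLC39 genes. Points are estimates and bars their SE, in black without and in green with the replicate block, and stars mark an adjusted p under 0.05 with the block. Mt1 and Mt2 lie at 1.92 and 3.05, and all other genes between -0.71 and 0.51.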

How the data were processed

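RNA was sequenced from 14 libraries. The study's methods give a stranded poly(A) kit and single-end reads of 50 bases for its own sequencing, whereas it took the data of these libraries from earlier work. Per the labels and the study's methods, the authors aligned reads to mm10 with TopHat2 2.0.13, kept uniquely aligned reads, counted them per gene with HTSeq 0.5.3p3 and normalised with DESeq. The annotation release and strand setting of the counting are not given in the sources used here. The values the authors deposited are a normalised signal per gene, that is, read counts divided by a size factor of the library, scaled separately for the 8 libraries of replicate 1 and for the other 6. Whole reads were recovered from 100% of the values (tolerance 0.1). Depth was 12545537 to 34696529 reads. A floor of 3 reads corresponds to normalised counts of 1.62 to 5.22. Reads carry no molecular identifiers, so intervals cover counting error only.

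Groups and replicate numbers came from the sample titles. Replicates 2 to 4 were compared with limma 3.58.1 (lmFit, eBayes with a trend, R 4.3.3) on log2(normalised count + 1), over 13096 genes with a mean of at least 10, with Benjamini-Hochberg adjustment over all of them and a threshold of 0.05. This scale understates changes of low genes. Treated and untreated libraries of 1 number deviated together over genes (r = 0.65, 0.76 and 0.70), so a fit with the number as a block was set beside it. Correlations for other numbers were -0.59 to 0.12. Deviations from a group mean cancel out within the group, which lowers these values, so the contrast is no separate evidence. What a number shares is not stated. Alternatives were edgeR 4.0.16 and DESeq2 1.42.0 on recovered reads, pseudocounts of 0.1 and 10, other filters, limma without the trend, upper quartile rescaling, each library left out, and a correction for transcript length (loess, span 0.5, on genes with a length, 90.6% of those listed). Scripts were tested on simulated data with known changes.

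Members and gene lists were chosen with earlier results of these data known. Named were the 6 members, other family genes called in a fit without or with the block and the 3 of highest level, at most 2 called genes of largest change from each further list, and the 3 genes most like each member. Annotation came from GENCODE on GRCm38 and promoters from RefSeq.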

Additional observations from a re-analysis of the deposited data

Results flagged for a closer look

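Of 14 sets of 4 values at 5 h (4 library measures in each group and the members' ratios in the 4 pairs), 2 held a library that stood far from the other 3, where chance gives about 1 in 20. Among the Untreated 5h libraries, the highest depth, 34696529 reads in replicate 4, lay apart from the others by 0.8291 of the group's whole range. In the same group, the share of reads from ribosomal protein genes was 6.88% in replicate 1 and 2.24 to 2.78% in the other 3 libraries, a gap of 0.8831 of the range. That library is the untreated library of the pair in which Mt1 did not differ between the groups.

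Mtf1 had a log2 ratio of -0.1999 at 1 h in replicate 1, whereas the 4 pairs at 5 h were all positive, between 0.28 and 0.67. The difference between the times was not tested, since there is 1 pair at 1 h. After length correction the ratio at 1 h was 0.37.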

How the results depend on the processing

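Pseudocounts, filters, upper quartile rescaling, limma without the trend, edgeR without pairing and length correction without pairing changed no direction and no call of the 6 members in the 5 h comparison of replicates 2 to 4. With the replicate block, limma called Mt1 (1.92), Mt2 (3.05), Mtf1 (0.37), Slc39a10 (-0.71) and Slc39a14 (0.51), 5 members and 2 other family genes, and edgeR called the same 5 (1.94, 3.07, 0.38, -0.67 and 0.52) and 2 others. Length correction with the replicate block called Mt1 (1.44), Mt2 (2.57), Mtf1 (0.72), Slc30a1 (0.48) and Slc39a14 (0.74), 5 members and 4 others. DESeq2 called 2 members, Mt1 (2.07) and Mt2 (3.15), and edgeR on 4 replicates with the block called 1, Mt2 (2.59). Without both libraries of replicate 3, a choice made after seeing the data, 3 members were called, Mt1 (2.17), Mt2 (3.22) and Slc39a10 (-0.98). The cause of these differences was not tested.

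Leaving out 1 library at a time gave log2 fold changes of 1.47 to 2.54 for Mt1, 2.55 to 3.72 for Mt2, 0.24 to 0.49 for Mtf1, -0.048 to 0.53 for Slc30a1, -1.44 to -0.25 for Slc39a10 and 0.17 to 0.84 for Slc39a14, with 0 to 2 members called, both metallothioneins being called only without AMG-treated 5h replicate 3. Adjusted p-values over these fits ran from 0.0163 to 0.360 for Mt1 and from 0.0116 to 0.281 for Mt2. The shares of all genes called in these fits were not computed, so the calls are descriptions only. Each fit had no pairing and kept the partner of the library left out. In replicate 1, length correction raised the members higher with AMG at 1 h from 3 to 5, turned Slc30a1 at 1 h to 0.035 and turned Mtf1 at 5 h to -0.0061. The members had 157 reads or more in every library. The intervals beside the ratios of replicate 1 give the counting error at these depths.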

Other observations

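Other genes that share inducers with the metallothioneins were counted in lists chosen with earlier results known. Of 8 metal and oxidative stress genes, 5 rose at 5 h with limma and no pairing and 6 with the replicate block, against 1.24 and 37.2% of all genes, led by Slc7a11, the cystine importer subunit xCT (log2 fold change 5.43, limma adjusted p = 0.00210), and Hmox1, haem oxygenase 1 (3.32, limma adjusted p = 0.00567). Their median log2 fold change was 2.10, against -0.02 over all genes. Of 6 interleukin-6 and STAT3 genes, 2 rose without pairing, Il6 itself (6.72) and the NF-kB cofactor gene Bcl3 (2.22), both at a limma adjusted p of 0.0402. With the block 5 were higher and 1 lower, 6 of 6 against 37.2% of all genes. With length correction and the block 5 were higher and 0 lower, against 32.8% of genes with a known length called in either direction. Of 6 glucocorticoid targets, limma called 0 without pairing and 0 passed at an unadjusted p under 0.05, and with the block Pdk4 rose (0.82) and Klf9 fell (-0.80), 2 of 6, which is near the share of all genes called (37.2%). In the 5 h pair of replicate 1 the log2 ratio was 0.92 for Pdk4, but Klf9 went the other way, at 1.30. Of 7 copper-handling genes, limma called 0 without pairing and 2 passed at an unadjusted p under 0.05, and with the block the copper exporter gene Atp7a fell (-1.02) and the copper chaperone gene Atox1 rose (0.64), with 1 further gene higher. These 3 of 7, and the 2 of 7 at an unadjusted p, are near the shares of all genes (37.2 and 23.1%). Both named genes went the other way in the 5 h pair of replicate 1, with log2 ratios of 1.48 for Atp7a and -1.29 for Atox1. With length correction and the block, Atox1 did not pass (log2 fold change 0.16, limma adjusted p = 0.141).

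Mt3, a metallothionein best known from the brain, lay below the filter and was looked at after its values were seen. It had 0 reads in Untreated replicates 2, 3 and 4 at 5 h and 15, 2 and 11 reads in the AMG-treated libraries. In replicate 1 the Untreated libraries had 0, 5, 1 and 0 reads at 1, 5, 12 and 24 h and the AMG-treated libraries 13, 15, 3 and 7 reads. Most of these values are near the floor of 3 reads, and Mt3 was not tested.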
